A study of Mus musculus with 12 samples.

Results

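Tnf, Tnfrsf1b and Icam1 were followed across the 4 groups of a NanoString nCounter experiment on mouse lung CD11c+ cells. They are 3 of the 754 endogenous genes on the panel and were taken by name from the deposited table. They were chosen by their measured counts in the 4 groups, with earlier fits of rRELMa against PBS and of run 2 against run 1 known. Their levels and differences are therefore given as a description, with standard errors and without a test. All 3 passed the filter on low counts, a mean of at least 20 over the 12 samples, as did 415 genes in all.

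RELMa (resistin-like molecule alpha, gene Retnla) is secreted by lung epithelium and by alternatively activated macrophages during helminth infection. Every sample came from RELMa-/- mice that had received 500 L3 larvae of Nippostrongylus brasiliensis, a nematode that passes through the lung, with lungs taken at day 10, so no group held cells of RELMa-sufficient or uninfected mice. The CD11c+ cells sorted from these lungs were cultured overnight, kept in 1% serum and then given recombinant RELMa (rRELMa) at 500 ng/ml, or PBS, for 4 h. The titles give 3 samples each of run 2 rRELMa, run 2 PBS, run 1 rRELMa and run 1 PBS, and they do not say what separated the runs or whether the numbered samples came from separate mice. In bulk lysates of this kind fewer cells of a type and less RNA per cell cannot be told apart.

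The endogenous genes of a sample summed to between 411169 and 765719 counts in run 2 and between 179719 and 257415 in run 1. The background limit of a sample, the mean plus 2 SD of its 8 negative-control probes, was 16.1 to 31.1 counts. Retnla itself gave 5 to 18 raw counts, at the level of these probes. Itgax, which encodes CD11c, lay above the limit in all 12 samples. Siglecf, an alveolar macrophage marker, lay above the limit in 8 of the 12. The alveolar macrophage markers on the panel, 9 of 9, passed the count minimum. So did 8 of 10 interstitial macrophage, 8 of 10 dendritic cell and 3 of 5 monocyte markers. No marker of T cells, B cells, NK cells or mast cells and basophils did (12 on the panel, led by Cd247 at a mean of 19.7 raw counts), and of the neutrophil markers 2 of 11 did. The minimum is a mean over both runs, and the T cell marker Cd247 exceeded the background limit in 3 samples and the NK cell marker Gzma in 4.

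Tnf encodes tumour necrosis factor, a cytokine that macrophages make early in inflammation. It binds the receptor TNFR1 (Tnfrsf1a), found on most cells, and TNFR2 (Tnfrsf1b), found mainly on leukocytes and endothelium, and both receptors can activate the transcription factor NF-kB. NF-kB in turn drives Tnf itself, its own inhibitor Nfkbia and the adhesion molecule Icam1, which the integrins LFA-1 (Itgal with Itgb2) and Mac-1 (Itgam with Itgb2) bind. In the lung, ICAM-1 holds leukocytes to endothelium and alveolar epithelium, and macrophages and dendritic cells carry it too.

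The stretches before the start sites of the 3 genes are shown because NF-kB acts on Tnf and Icam1 through sites upstream of the gene, and Nfkbia is added because its counts followed those of Tnf most closely, as described further on. Each is the 250 bases upstream of the RefSeq start site on the gene's own strand, 5′ to 3′, in build GRCm38.p6. All 4 genes had 1 entry each in the RefSeq promoter table. The Tnf stretch is chr17:35202008-35202257 (minus strand), the Icam1 stretch chr9:21015690-21015939 (plus strand), the Tnfrsf1b stretch chr4:145246871-145247120 (minus strand) and the Nfkbia stretch chr12:55492648-55492897 (minus strand). Capitals mark matches, on either strand, to GGNNNTTCC, a form of the NF-kB site, to TTCNNNGAA, a form of the STAT site, and to TATAAA, the TATA box.
Tnf: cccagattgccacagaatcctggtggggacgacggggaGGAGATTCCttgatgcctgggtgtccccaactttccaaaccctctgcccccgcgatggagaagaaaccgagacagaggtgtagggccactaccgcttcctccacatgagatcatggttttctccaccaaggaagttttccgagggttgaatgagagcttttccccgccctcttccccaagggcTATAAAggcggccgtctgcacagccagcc
Icam1: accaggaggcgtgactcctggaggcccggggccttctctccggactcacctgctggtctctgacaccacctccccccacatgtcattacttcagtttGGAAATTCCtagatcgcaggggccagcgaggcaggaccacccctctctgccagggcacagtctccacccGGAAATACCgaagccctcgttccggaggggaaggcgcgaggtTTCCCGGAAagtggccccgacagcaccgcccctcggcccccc
Tnfrsf1b: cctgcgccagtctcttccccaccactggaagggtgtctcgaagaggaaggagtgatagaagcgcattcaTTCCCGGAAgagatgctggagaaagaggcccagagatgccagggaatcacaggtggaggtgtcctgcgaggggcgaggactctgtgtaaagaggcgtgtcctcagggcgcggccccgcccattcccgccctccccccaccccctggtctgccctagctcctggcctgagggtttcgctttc
Nfkbia: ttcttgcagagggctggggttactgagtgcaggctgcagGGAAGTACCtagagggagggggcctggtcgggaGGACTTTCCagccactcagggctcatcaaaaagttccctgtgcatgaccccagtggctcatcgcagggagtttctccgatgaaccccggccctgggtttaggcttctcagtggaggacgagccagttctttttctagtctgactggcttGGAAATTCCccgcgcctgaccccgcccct

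The NF-kB form occurred once in the Tnf stretch, 212 bases before the start, and at 2 positions in the Icam1 stretch, 153 and 84 bases before it. The Nfkbia stretch held 3 and the Tnfrsf1b stretch none. Among all 32841 RefSeq promoters of the same length, 15.7% held this form at least once. The STAT form stood 42 bases before the start of Icam1 and 181 bases before that of Tnfrsf1b, and 7% of all promoters held it. Tnf alone of the 4 held TATAAA in this window, against 12.4% of all promoters. These are letter matches. Binding was not measured.

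Tnf counts varied widely among samples of the same group, and the treatment groups overlapped in both runs. In run 2, TMM-normalized counts (raw counts divided by the sample's scaling factor) of Tnf were 101, 124 and 126 with rRELMa, against 88.3, 129 and 92.2 with PBS. In run 1 they were 174, 166 and 150 with rRELMa, against 180, 109 and 181 with PBS. PBS replicate 2 stood apart from the other PBS samples of its run, high in run 2 and low in run 1. The means were 117 ± 13.8 with rRELMa and 103 ± 22.6 with PBS in run 2, and 163 ± 12 with rRELMa and 156 ± 41.5 with PBS in run 1 (SD, n = 3 each).

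The coefficient of variation of Tnf with rRELMa was 11.7% in run 2 and 7.33% in run 1, where the median of the tested genes was 7.26% in run 2 and 10.3% in run 1. In PBS it was 21.9% in run 2 and 26.5% in run 1, where the median was 8.15% in run 2 and 8.94% in run 1. Raw Tnf counts lay between 80 and 220, 2.57 to 10.3 times the background limit of the sample, and counting error alone is 11.2% for a count of 80 and 6.74% for a count of 220. The spread in PBS was thus wider than counting error.

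The log2 difference of Tnf, rRELMa minus PBS, was 0.16 (SE 0.15) in run 2 and 0.07 (SE 0.17) in run 1. With the run as a block it was 0.12 (SE 0.11), or 8.85% higher. Its size rested on single PBS samples. Without run 1 PBS replicate 2 the difference in run 1 was -0.16 and that over both runs 0.03. Without run 2 PBS replicate 2 the difference over both runs was 0.22 and that in run 2 0.38, and without run 2 PBS replicate 1 that in run 2 was 0.029.

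**Figure D1:**
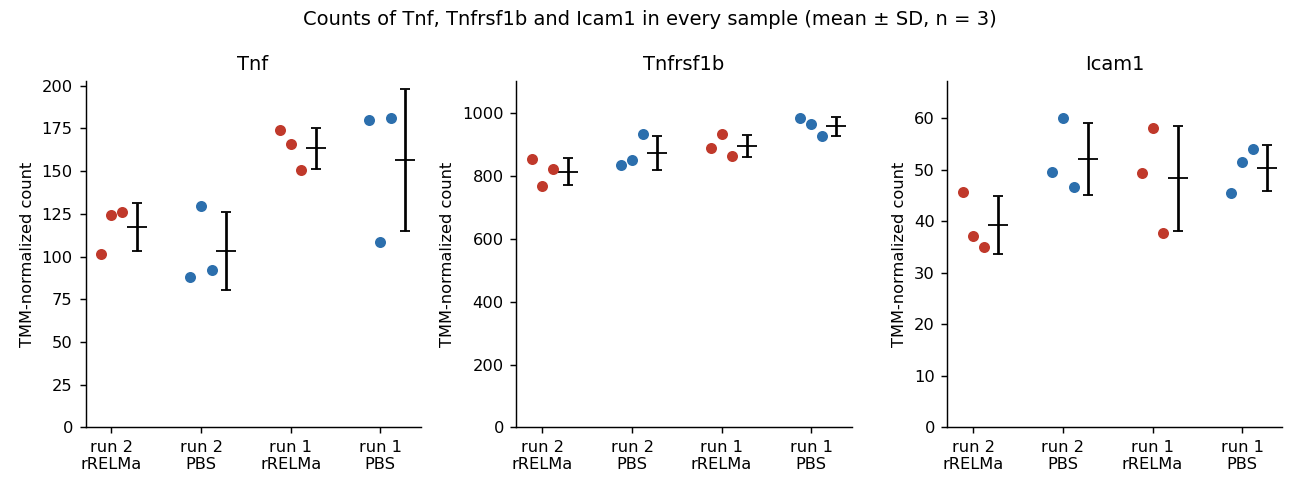
TMM-normalized counts (vertical axes, from 0) of Tnf, Tnfrsf1b and Icam1 in the 12 samples, in groups of run and treatment along the horizontal axis, red for rRELMa and blue for PBS. Points are samples and bars the mean ± SD of 3. Tnf was lower in run 2 than in run 1 for most samples. Icam1 in run 2 was the one case in which rRELMa and PBS samples did not overlap, by a narrow gap that was lost after subtraction of the negative controls.

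Tnfrsf1b, the receptor gene, varied less within groups than the other 2 and had a small difference of the same sign in both runs with TMM. In run 2 its normalized counts were 854, 767 and 821 with rRELMa, against 835, 851 and 933 with PBS. In run 1 they were 888, 933 and 865 with rRELMa, against 984, 964 and 925 with PBS. In each run 2 of the 3 rRELMa samples lay below every PBS sample and the other lay among them, so the groups overlapped.

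The log2 difference of Tnfrsf1b was -0.095 (SE 0.057) in run 2, -0.093 (SE 0.065) in run 1 and -0.094 (SE 0.042) with the run as a block, a level 6.33% lower with rRELMa. All 6 rRELMa samples lay below the PBS mean of their run, but the share of tested genes with such a pattern was not computed. By size the Tnfrsf1b difference with the run as a block ranked 144 of 415. The difference between the runs' effects was -0.002 (SE 0.087). With the positive controls the values were 0.074 in run 2 and -0.27 in run 1. With 1 sample left out they were -0.14 to -0.046 in run 2, the smallest without PBS replicate 3, and -0.16 to -0.091 in run 1, the largest without rRELMa replicate 2 or PBS replicate 3. Raw counts were 460 to 1516, at least 22.8 times the background limit. The coefficient of variation within groups was 3.1% to 6.06%, below the median of the tested genes in each group.

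Icam1 had the lowest counts of the 3, and its treatment difference was the largest of the 3 in run 2 and the smallest in run 1. In run 2 its normalized counts were 45.6, 37.1 and 35 with rRELMa, against 49.5, 60 and 46.6 with PBS, so the groups did not overlap and rRELMa was the lower. Of the tested genes 6.02% were separated in this direction in run 2 and 14.9% in either direction. The gap for Icam1 was narrow, 45.6 in rRELMa replicate 1 against 46.6 in PBS replicate 3. After subtraction of the negative-control mean these 2 samples stood at 39.4 and 38.9, so the groups overlapped. In run 1 separation in either direction held for 12.5% of the tested genes and for none of the 3. In run 1 the values were 49.2, 58 and 37.6 with rRELMa, against 45.4, 51.5 and 53.9 with PBS, and the rRELMa samples lay on both sides of all PBS samples.

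The log2 difference of Icam1 was -0.42 (SE 0.15) in run 2, -0.04 (SE 0.21) in run 1 and -0.28 (SE 0.13) with the run as a block, a level 17.9% lower with rRELMa. By size it ranked 18 of 415 with the run as a block, 15 of 415 in run 2 and 332 of 415 in run 1. These ranks are a description only, since Icam1 was chosen with its values known. The difference between the runs' effects was -0.38 (SE 0.26), but -0.19 without run 1 rRELMa replicate 2 and -0.045 with the positive controls. Without run 2 PBS replicate 2, the sample highest in both Icam1 and Tnf in that run, the difference over both runs was -0.18, and it ranged to -0.38 without run 1 rRELMa replicate 2. In run 1 the difference turned to 0.06 without rRELMa replicate 3.

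In run 2 the raw counts of Icam1 were 54 to 81 with rRELMa and 46 to 102 with PBS, 2.45 to 4.79 times the background limit. In run 1 they were 20 to 44 with rRELMa and 28 to 42 with PBS, 1.02 to 1.77 times the limit. Counting error alone is 22.4% for a count of 20 and 9.9% for a count of 102. The coefficient of variation of Icam1 was 14.4% and 13.5% in run 2 rRELMa and PBS, and 21.2% and 8.76% in run 1 rRELMa and PBS.

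**Figure D2:**
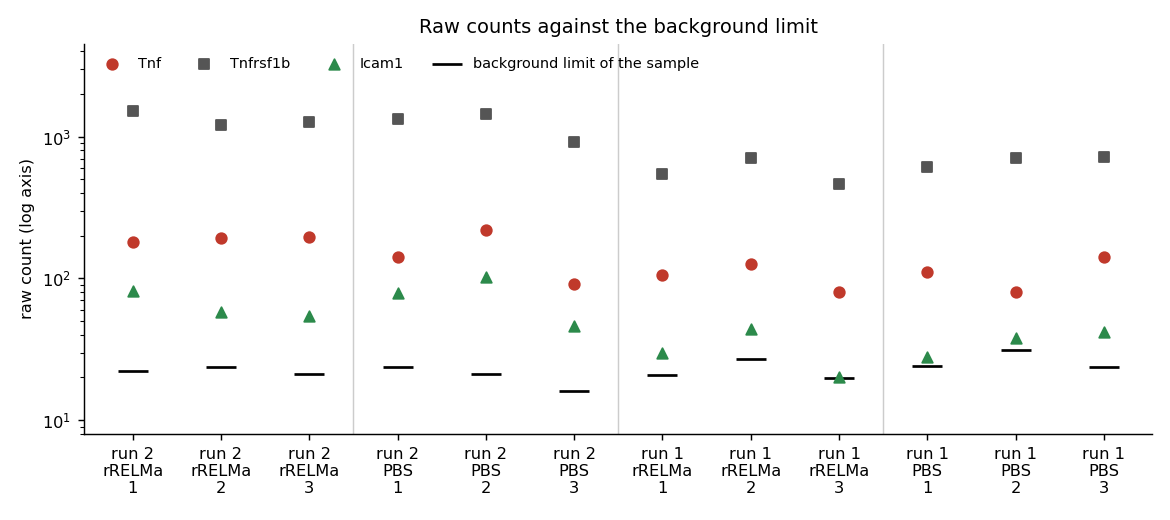
Raw counts (vertical log axis) of the 3 genes in each sample, with the background limit of that sample as a black bar. Tnfrsf1b stood far above the limit throughout, whereas Icam1 touched it in run 1, with 20 counts against a limit of 19.7 in rRELMa replicate 3.

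After the negative-control mean was subtracted from each raw count, Icam1 averaged 32.3 ± 6.16 with rRELMa and 44.6 ± 7.76 with PBS in run 2, and 29.5 ± 9.82 with rRELMa and 29.6 ± 7.69 with PBS in run 1 (normalized counts, SD, n = 3 each). Of these, run 2 PBS was the highest group. Tnf kept its order after the subtraction, with 110 ± 13.2 and 95.8 ± 23.4 in run 2 rRELMa and PBS, and 145 ± 11 and 136 ± 41.4 in run 1 rRELMa and PBS (SD, n = 3 each).

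**Figure D3:**
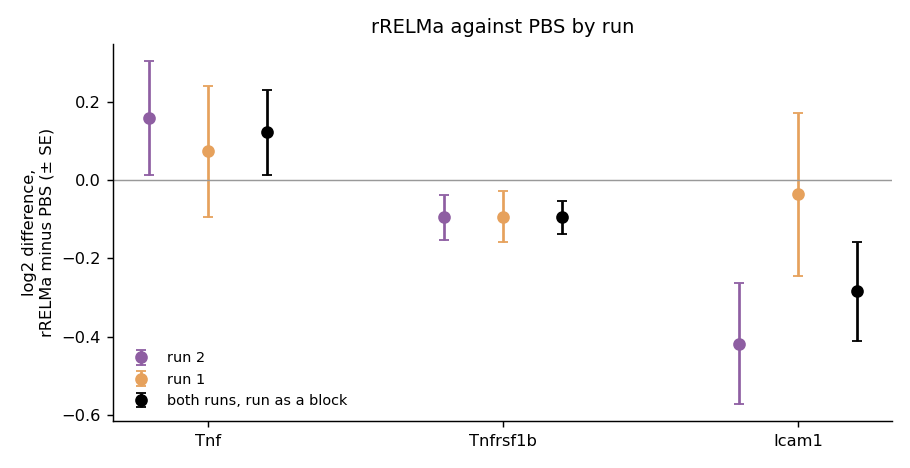
Log2 difference, rRELMa minus PBS, of the 3 genes (vertical axis) in run 2, in run 1 and over both with the run as a block. Bars are standard errors. Tnfrsf1b stood at -0.095 in run 2 and -0.093 in run 1, and Icam1 lay at -0.42 in run 2 and -0.04 in run 1.

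Ordered by group mean, normalized Tnf counts were highest in run 1 rRELMa and run 1 PBS, then run 2 rRELMa, then run 2 PBS. No neighbours in this order differed beyond the larger of their SDs. Tnfrsf1b ran from run 1 PBS at 958 ± 29.7 through run 1 rRELMa at 895 ± 34.7 and run 2 PBS at 873 ± 52.9 to run 2 rRELMa at 814 ± 44.1 (SD, n = 3 each), where the steps within a run were larger than the SDs of the groups they join, although samples overlapped, and the step between runs was smaller. Icam1 in run 2 rRELMa, at 39.2 ± 5.64, was the lowest of its groups, and the other groups, at 52 ± 7.02 in run 2 PBS, 48.3 ± 10.2 in run 1 rRELMa and 50.3 ± 4.4 in run 1 PBS, did not differ beyond their spread (SD, n = 3 each).

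Tnf differed more between runs than between treatments, as the tested genes did in general. Their median absolute log2 difference was 0.46 between runs and 0.061 between treatments. By size the run difference of Tnf ranked 181 of 415. Over both treatments the normalized count of Tnf had a median of 113 in run 2 (lowest 88.3, highest 129, n = 6) and of 170 in run 1 (lowest 109, highest 181, n = 6). The log2 difference, run 2 minus run 1 with treatment in the model, was -0.53 (SE 0.11). One run 1 sample, PBS replicate 2 at 109, lay within the range of run 2, so the runs overlapped. For Tnfrsf1b the difference was -0.14 (SE 0.043) and for Icam1 -0.12 (SE 0.13), both with overlapping runs. Runs that did not overlap, in either direction, were seen for 53.3% of the tested genes and for none of the 3.

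These run differences depended on the scaling. The median of all tested genes was -0.05 with TMM, -0.38 when samples were scaled to the 20 reference genes, -0.41 with library totals and 1.73 with the positive-control probes, and the values of the 3 genes moved with it. A change of scaling moves all genes alike, so the distance from that median is nearly fixed by construction, and with TMM it was -0.48 for Tnf, -0.087 for Tnfrsf1b and -0.06 for Icam1. Subtraction of the negative controls does not move all genes alike. It gave distances from its median (0.28) of -0.71 for Tnf, -0.40 for Tnfrsf1b and 0.11 for Icam1. With the negative controls subtracted, the Icam1 difference changed sign to 0.39 (SE 0.20), while that of Tnf was -0.44 (SE 0.16).

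**Figure D4:**
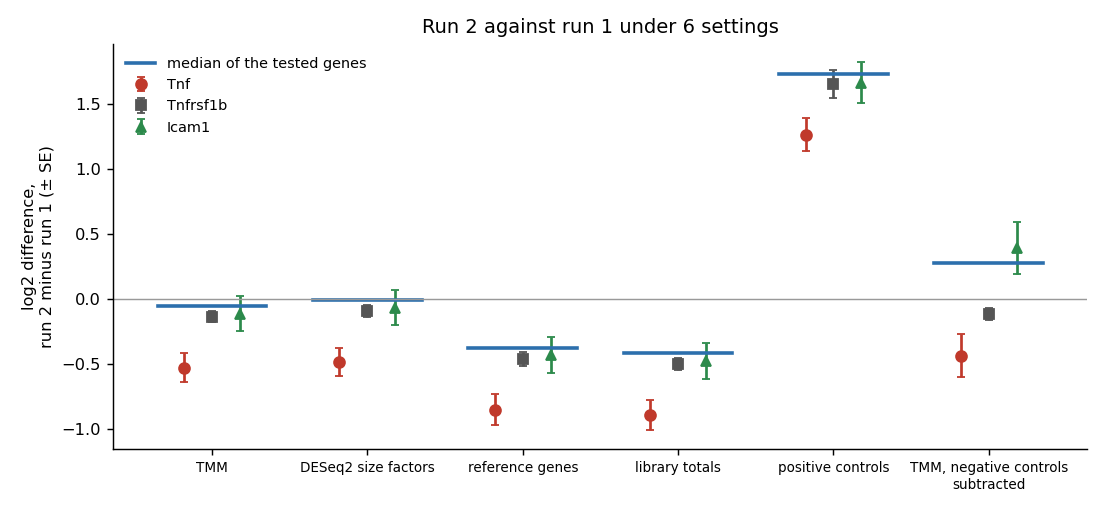
Log2 difference, run 2 minus run 1 (vertical axis, bars are standard errors), of the 3 genes under 5 scalings and after subtraction of the negative controls, with the median of the tested genes as a blue line. Tnf lay below that line in every setting shown, and Icam1 rose above it after the subtraction.

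Ratios of raw counts within a sample do not depend on the scaling, although the ratio of 2 probes says nothing of their relative abundance. The Tnfrsf1b to Tnf ratio averaged 7.03 ± 1.21 and 8.72 ± 1.88 in run 2 rRELMa and PBS, against 5.49 ± 0.342 and 6.49 ± 2.08 in run 1 rRELMa and PBS (SD, n = 3 each). The ratio of Tnfrsf1b to Tnfrsf1a, the other TNF receptor, separated the runs. It was 1.72, 1.64 and 1.71 in run 2 rRELMa and 1.57, 1.8 and 1.81 in run 2 PBS, against 2.46, 2.48 and 2.17 in run 1 rRELMa and 2.52, 2.33 and 2.27 in run 1 PBS. Treatments overlapped in each run. Tnfrsf1a alone separated the runs with TMM, at 467 to 532 normalized counts in run 2 and 361 to 414 in run 1. So did 53.3% of the tested genes in either direction, and the share of gene pairs whose ratio does so was not computed. The ratio of these 2 probes thus differed between runs and was about equal between treatments.

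Levels of Icam1 and Tnf shared a feature in run 2 PBS, where replicate 2 was the highest sample for both. The Icam1 to Tnf ratio in run 2 was 0.45, 0.299 and 0.277 with rRELMa, against 0.56, 0.464 and 0.505 with PBS, with no overlap. In run 1 it was 0.283, 0.349 and 0.25 with rRELMa, against 0.252, 0.475 and 0.298 with PBS, with overlap. This ratio was chosen after its values were seen. Of single tested genes 14.9% did not overlap in run 2, and the share of gene pairs whose ratio does so was not computed.

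Of the genes whose profile over the 12 samples was most like that of Tnf, Nfkbia, which encodes the NF-kB inhibitor IkB-alpha, came first. Likeness was the root-mean-square difference of log2 counts after each gene was centred on its own mean, and it was 0.16 for Nfkbia, against a median of 0.45 over the tested genes. Nfkbia had 167, 179 and 172 normalized counts in run 2 rRELMa and 150, 186 and 154 in run 2 PBS, against 231, 229 and 214 in run 1 rRELMa and 250, 212 and 244 in run 1 PBS. As for Tnf, replicate 2 was the highest PBS sample in run 2 and the lowest in run 1. Smad7 (0.19), Fosl1 (0.20), Nfil3 (0.20) and Havcr2 (0.21) followed.

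For Tnfrsf1b the nearest profiles were those of Rhog (0.093), Hist2h2aa1 (0.098), Cebpb (0.11), Adgre1 (0.11) and Ncor1 (0.11), with a median over the tested genes of 0.34. For Icam1 they were Tgm2 (0.19), Mertk (0.20), Vasp (0.20), Tnfrsf1b (0.20) and Cd99 (0.21), with a median of 0.39. Tnfrsf1b was thus 4th of 414 for Icam1, whereas Tnf was 219th of 414. In the other direction Icam1 was only 82nd of 414 for Tnfrsf1b. For Tnf, Tnfrsf1b was 96th and Icam1 157th. All these profiles share the same scaling factors, and genes with little variation of their own lie nearest to a flat profile.

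The other genes of the pathway came from 6 lists, of which 72 genes besides the 3 were on the panel and 44 passed the count minimum. Of the 7 other TNF family ligands on the panel, among them Tnfsf10 (TRAIL), Lta and Ltb, none passed it, with mean raw counts of 4.67 to 17.1. Of 30 NF-kB target genes 14 fell short, including Il1b, Il6, Vcam1 and Mmp9, and they were left out of the test.

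Between treatments 0 of the 44 passed the test in either direction (edgeR's quasi-likelihood test, adjusted p under 0.05), where 0.241% of the 415 tested genes were called, that is 1, the arginase gene Arg1, named after its value was seen. Limma and DESeq2 also called 0 of the 44. With edgeR 4 of the 44 had an unadjusted p under 0.05, as did 7.71% of the tested genes. The median log2 difference of the 44 was 0.03, against 0.01 for all tested genes. Among the receptors the values were -0.083 (SE 0.048) for Tnfrsf1a, 0.41 (SE 0.20) for the death receptor Fas and 0.26 (SE 0.17) for Tnfrsf14, of which Fas exceeded the background limit in 5 and Tnfrsf14 in 6 of the 12 samples. Of the signalling genes the smallest p belonged to the kinase gene Ikbke at -0.22 (SE 0.12) and the ubiquitin ligase gene Birc2 at 0.19 (SE 0.10).

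Of the NF-kB subunits and inhibitors, Nfkbia stood at 0.01 (SE 0.071), Nfkbiz at 0.03 (SE 0.19), Nfkbie at 0.15 (SE 0.13) and Tnfaip3, which encodes the NF-kB brake A20, at -0.11 (SE 0.084). Among the NF-kB targets the chemokine Ccl3 had 0.36 (SE 0.10, edgeR adjusted p = 0.245) and the transcription factor Irf1 0.18 (SE 0.097). Beside Icam1, the integrin subunit Itgb1 had 0.11 (SE 0.044), Itga4 0.19 (SE 0.11) and the junctional adhesion molecule gene F11r 0.18 (SE 0.082). Within each run 0 of the 44 passed as well (edgeR), where 0% of the tested genes did in run 2 and 0.241% in run 1. At an unadjusted p under 0.05 there were 3 in run 2, against 7.47% of the tested genes, and 4 in run 1, against 6.02%. When the treatment effects of the runs were compared, 0% of the 415 passed (edgeR, where 28 had an unadjusted p under 0.05, and likewise 0 with limma or DESeq2).

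Between runs 33 of the 44 passed, 12 higher and 21 lower in run 2 (edgeR), where 74.7% of the tested genes were called, 34% higher and 40.7% lower. Over all tested genes 141 were higher and 169 lower with TMM, 71 and 241 after reference-gene scaling, 66 and 258 after scaling to library totals, 378 and 19 with the positive controls and 197 and 112 with the negative controls subtracted. For the 44 the split followed the scaling too, at 8 higher and 27 lower with the reference genes, 38 and 4 with the positive controls and 18 and 13 with the negative controls subtracted. Of the 5 other receptors tested 1 rose, Tnfrsf1a by 0.34 (SE 0.049, edgeR adjusted p = 6.1e-07), and 2 fell, Tnfrsf11a and Tnfrsf14, but Tnfrsf1a stood at 0.01 with the reference genes and the other 2 were positive with the positive controls. Of the 10 signalling genes Jun rose by 0.63 (SE 0.084, edgeR adjusted p = 1.25e-07) and kept its sign under all 6 settings, while Traf2, Ikbke and Map3k14 fell with TMM and were positive with the positive controls. After subtraction Ikbke stood at 0.050 and Map3k14, above the background limit in 4 of the 12 samples, at 1.00. The inhibitors Nfkbia, Nfkbiz and Tnfaip3 also fell with TMM (log2 differences -0.45, -0.94 and -0.27) and were positive with the positive controls. Nfkbiz, above the limit in 8 of the 12 samples, stood at 0.14 after subtraction. Of the 16 NF-kB targets 5 rose and 11 fell, with a median of -0.59. Among them Cxcl10, Il12b, Ptgs2 and Socs3 lay at or near background in 1 run and passed the count minimum through the other. Ptgs2 had 12 to 24 raw counts in run 2, and Socs3 had 11 to 23 in run 1. The direction of these genes was tied to the filter, so the tally is a description only. The list had 3 higher and 11 lower with the reference genes (median -0.91) and with library totals (-0.95), 10 higher and 4 lower with the positive controls (1.20), and 5 higher and 9 lower after subtraction (-0.41). Nos2, the inducible nitric oxide synthase, had 30.6 ± 4.85 and 25.5 ± 1.68 normalized counts in run 2 rRELMa and PBS, against 256 ± 19.4 and 252 ± 18.7 in run 1 rRELMa and PBS (SD, n = 3 each; log2 difference -3.18, SE 0.094, adjusted p = 2.96e-22).

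The T-cell attractant Ccl5 fell by 2.44 on the log2 scale (SE 0.051, edgeR adjusted p = 6.57e-26) and the interleukin-1 receptor antagonist Il1rn had -2.22 (SE 0.055, edgeR adjusted p = 5.41e-24). Cxcl10, an interferon-inducible chemokine that is also an NF-kB target, had a log2 difference of -3.48 (SE 0.22, edgeR adjusted p = 1.12e-14), with run 2 raw counts of 2 to 14, below the background limit, so that its size in run 2 was not measured. These 4 kept their sign under all 6 settings tried. In the opposite direction, Ccl3 had 1.01 (SE 0.12) and kept its sign. Its raw counts in run 1 were 24 to 40, near the background limits of 19.7 to 31.1 there. Ccl3 lay above the limit in 10 of the 12 samples, and its difference was 1.80 after subtraction. Il12b had raw counts of 54 to 112 in run 2, against 6 to 26 in run 1, around the background limit there, so the size of its difference was not measured (1.40 with TMM, 3.82 after subtraction). Beside these values Tnf stood at -0.53 (SE 0.11).

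Of the 8 tested genes that partner Icam1 or act beside it in adhesion, 5 rose, 2 fell and 1 did not pass the test with TMM, with a median of 0.48. Over all tested genes 34% were higher and 40.7% lower. With the reference genes 4 of the 8 were higher and 2 lower (median 0.16), likewise with library totals (0.12). With the positive controls 8 were higher (2.27), as were 378 of the 415 tested genes. Both chains of Mac-1 rose, Itgam by 0.86 (SE 0.078, edgeR adjusted p = 5.02e-11) and Itgb2 by 0.62 (SE 0.038, edgeR adjusted p = 6.93e-15), and kept their sign under all 6 settings. Itgal of LFA-1 had 0.35 (SE 0.088, edgeR adjusted p = 0.000885), but its value was near 0 with the reference genes (0.02) or library totals (-0.02). Itgax, the CD11c chain used to sort the cells, rose by 1.19 (SE 0.054, edgeR adjusted p = 6.04e-18). Selplg, the selectin ligand PSGL-1, fell by 0.71 on the log2 scale, although it was positive with the positive controls (1.08).

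**Figure D5:**
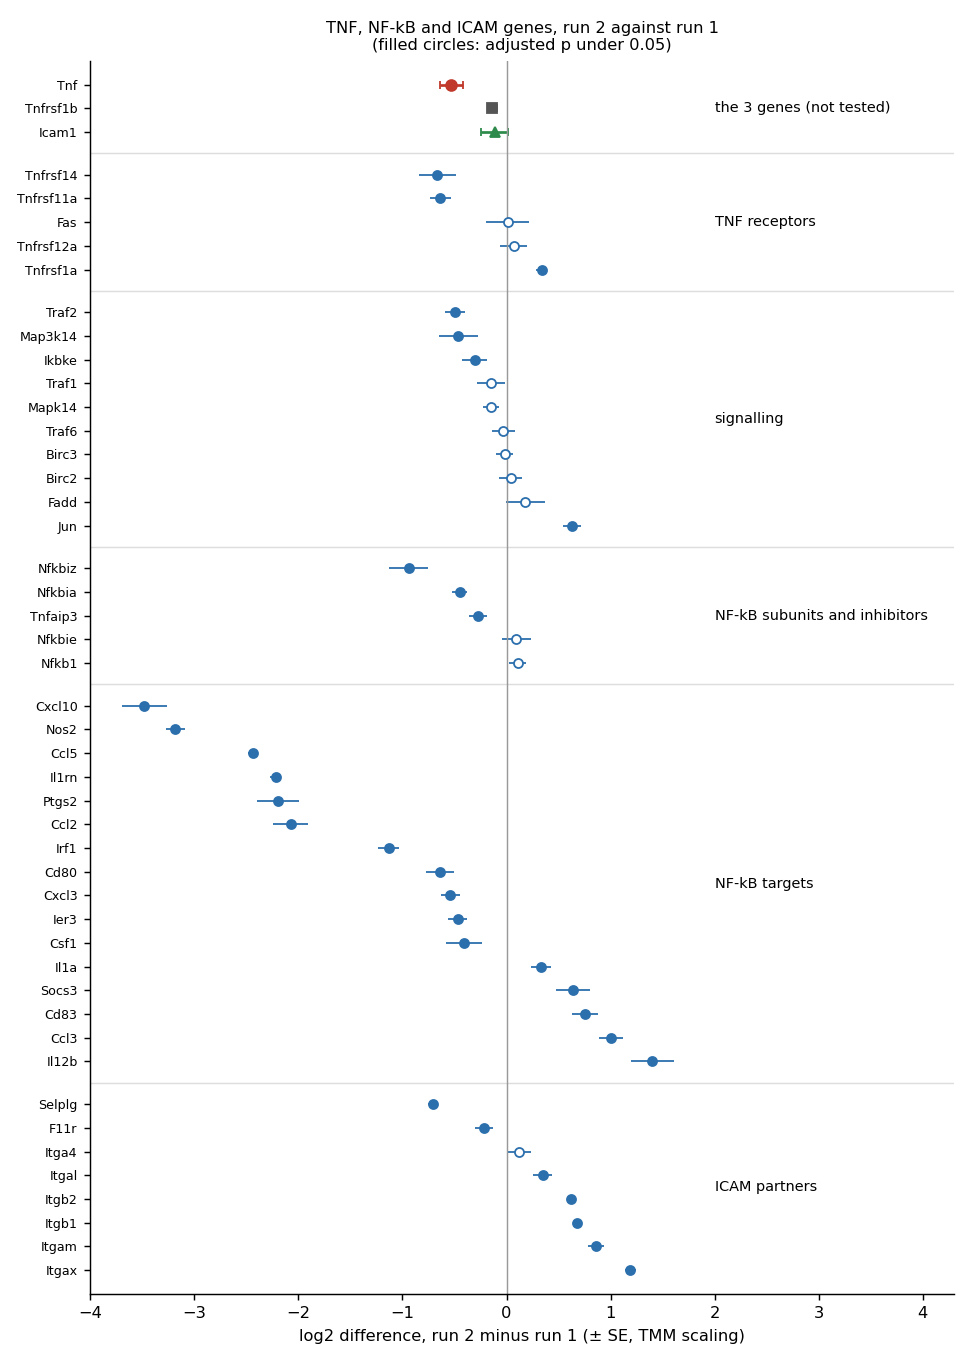
Log2 difference, run 2 minus run 1 with TMM scaling (horizontal axis, bars are standard errors), of the 3 genes and the 44 tested genes of the lists. Filled circles passed an adjusted p under 0.05 with edgeR. NF-kB targets lay on both sides of 0, with Cxcl10 and Il12b at the ends, each at or near background in 1 run, so that the ends are not measured sizes.

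Some marker sums differed between runs with TMM. The sums were not recomputed with other scalings or after subtraction of the negative controls. Sums of background counts differed too. The 8 mast cell and basophil markers, 0 of which passed the count minimum, summed to 22.0 to 28.5 in run 2 and 55.8 to 66.5 in run 1. The 2 NK cell markers, also under the minimum, summed to 3.38 to 12.2 in run 2 and 47.0 to 79.6 in run 1. The T cell marker Cd247 had 9.07 to 13.1 in run 2 and 22.6 to 40.5 in run 1. The B cell marker Ms4a1 had 2.82 to 8.82 in run 2 and 13.0 to 23.1 in run 1. The 9 alveolar macrophage markers, of which Chil3 alone had a mean of 97272 raw counts and the next, Cd36, 3856, summed to 99866 to 109340 normalized counts in run 2 and 66739 to 74960 in run 1, and the 5 monocyte markers on the panel (3 above the count minimum) to 191 to 219 in run 2 and 345 to 422 in run 1. The 10 interstitial macrophage markers summed to 1767 to 2067 in run 2 and 2104 to 2310 in run 1. The sums of the 10 dendritic cell markers overlapped, at 756 to 986 in run 2 and 622 to 789 in run 1. The 6 epithelial, endothelial and stromal markers on the panel (2 above the count minimum), led by Cav1 at a mean of 1417 raw counts, summed to 929 to 1037 in run 2 and 2120 to 2520 in run 1. The sums of the 11 neutrophil markers overlapped, at 612 to 800 in run 2 and 596 to 684 in run 1. They were led by Mmp8 and S100a8, at means of 437 and 241 raw counts and above the background limit in all 12 samples. The other neutrophil markers, Ly6g and Elane among them, did not exceed the limit in any sample. Endogenous counts per positive-control count were 6.76 to 9.32 in run 2 and 1.39 to 1.88 in run 1. The part of any of these in the run difference of Tnf was not tested. Between treatments within a run the alveolar macrophage sums were 104140 to 109340 with rRELMa and 99866 to 102310 with PBS in run 2, and 67062 to 73728 with rRELMa and 66739 to 74960 with PBS in run 1.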

How the data were processed

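The deposited table held whole-number barcode counts for 768 probes in 12 samples, 754 endogenous genes, 6 positive and 8 negative controls. Per the labels' protocols the assay was the NanoString nCounter XT with the Myeloid Innate Immunity Panel, and the unit was read from the values, since totals differ and control probes are unscaled. No label names the counting software. The lowest value was 1. The members and gene lists were chosen with earlier results of these data known.

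Control probes and 20 reference genes were left out, and 415 genes with a mean of at least 20 counts were tested. Counts were scaled by TMM and fitted with edgeR 4.0.16 (quasi-likelihood, R 4.3.3), treatment with the run as a block, or 1 coefficient per group for effects within runs. The p-values were adjusted by Benjamini-Hochberg over the tested genes. Since nothing says that replicates were separate cultures or mice, p-values cover only sample-to-sample spread, possibly technical. Alternatives used limma 3.58.1 and DESeq2 1.42.0. The fit was tested on simulated data. All 12 pairs of samples within a group differed by more than sampling noise. The rule for named genes took the 3 genes, up to 4 genes per list and comparison by smallest p, and the 5 nearest profiles per gene. Named outside it, after values were seen, were Itgal, Itgam, Il12b, Ptgs2, Socs3 and Ccl3 by run, and some genes under the count minimum.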

Additional observations from a re-analysis of the deposited data

How the results depend on the processing

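Over both runs the signs of Tnf, Tnfrsf1b and Icam1 between treatments held in all 22 alternatives (0.03 to 0.22, -0.13 to -0.07 and -0.38 to -0.18 log2). Between runs with the reference genes they were -0.85, -0.46 and -0.43, with library totals -0.90, -0.50 and -0.47, and with the positive controls 1.26, 1.65 and 1.66. Icam1 was 0.39 with the negative controls subtracted, and -0.20 to 0.0054 when 1 sample was left out, the highest without run 1 rRELMa replicate 2. With the positive controls the treatment difference of Tnf in run 1 was -0.10 and of Tnfrsf1b in run 2 0.074, and the difference between runs of the Tnfrsf1b effect 0.34. With 1 sample left out, run 1 gave -0.16 to 0.16 for Tnf and -0.25 to 0.063 for Icam1. The difference between the runs' effects was -0.046 to 0.30 for Tnf, -0.047 to 0.050 for Tnfrsf1b and -0.52 to -0.19 for Icam1. Genes called between treatments numbered 1, but 2 with no filter and 0 without the run term. In run 1 the count was 1, and 0 with reference-gene or library-total scaling, no filter, DESeq2, limma and subtraction, and 0 to 1 with 1 sample left out (0 without run 1 rRELMa 1 or 2, run 1 PBS 1 or 2, or run 2 rRELMa 1). In run 2 it was 0, and 1 with subtraction. Run 2 against run 1 gave 310, and 585 with no filter, which tests 734 genes. Other causes of these shifts were not tested. Equal replicate numbers did not mark pairs (r of deviations -0.08 to -0.03 in 6 pairs). In both runs rRELMa 1 with PBS 2, 2 with 3 and 3 with 1 had positive r, and the other combinations negative r. The positive values were 0.115 to 0.189 in run 2 and 0.119 to 0.138 in run 1. This pattern was seen afterwards, and no fit included it. With the replicate block Tnf, Tnfrsf1b and Icam1 were 0.14, -0.097 and -0.28, and 1 gene was called over both runs, 1 in run 1 and 1 in run 2.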
